A study of Mus musculus with 33 samples.

Results

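The Sox genes described here are Sox15 and the members of 3 groups of the Sox family: SoxC (Sox4, Sox11 and Sox12), SoxE (Sox8, Sox9 and Sox10) and SoxF (Sox7, Sox17 and Sox18). These 10 genes were taken by name from the 47729 genes of the count tables; the rule uses no measured value, but the genes were proposed with earlier results of these data known. RNA was sequenced from C57BL/6J mouse retinal progenitor cells, which divide and produce all retinal neurons and the Müller glia, obtained at embryonic day 14. At day 0 the cells were untreated, primed towards cones with COCO, a secreted protein that blocks Wnt, TGF-beta and BMP signals, or primed towards rods with taurine and retinoic acid. Cone cultures and rod cultures, induced with the same agents, were sequenced at days 5, 12, 21 and 35, which made 11 groups of 3 libraries. How long each agent was kept in the medium is not given in the sources used here. Nothing in the labels says that replicates were separate cultures, so p-values measure the spread between these libraries, which may be technical.

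Sox proteins are transcription factors that bind DNA through an HMG box, and members of a group are closely related and can act on the same targets. SoxC factors are known for promoting neuronal differentiation after the last division, and in the retina Sox4 and Sox11 are needed for retinal ganglion cells. Among the SoxE genes, Sox8 and Sox9 are known in retinal progenitors and Müller glia, and Sox10 in neural crest derivatives and oligodendrocytes. SoxF factors are known for their part in the formation of blood and lymph vessels, and Sox15, the only SoxG gene, was first studied in embryonic stem cells and muscle. The series title names Sox15 as a gene that favours cones over rods.

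Libraries held 7511837 to 19166442 counts in genes, with a median of 12985662. Levels are given as CPM, counts scaled to library size after TMM normalisation, and levels of different genes are compared only as CPM per kb of exon. Of the 10 genes, 7 passed the filter on low counts and were among the 18150 genes tested. A gene was called at an adjusted p under 0.05 (edgeR quasi-likelihood test with Benjamini-Hochberg adjustment), and ± after a log2 fold change is its standard error. The retinal progenitor list (12 genes) summed to 1286 to 1464 CPM in untreated libraries and to 1741 to 1919 CPM in cone and 2227 to 2745 CPM in rod cultures at day 35. Its genes went both ways against primed cells, with 4 called higher and 6 lower in cone cultures (median log2 fold change -0.39) and 4 higher and 4 lower in rod cultures (-0.15) at that day. The photoreceptor list (10 genes) summed to 682 to 978 CPM in untreated libraries, but at day 35 to 7.60 to 34.3 CPM in cone cultures, with Opn1sw at 0, and to 9.38 to 16.2 CPM in rod cultures, with Arr3 and Gngt2 at 0. At day 5 this list had summed to 1137 to 1404 CPM in cone and 578 to 953 CPM in rod libraries, and 1 of 9 tested genes was called higher in cone cultures. Cone and rod name the culture condition in what follows. Rod day 12 replicate 2 stood apart from the other rod libraries of that day, with a photoreceptor sum of 859.8 CPM against 68.9 and 141 and a cell cycle sum of 668 CPM against 1631 and 1169. In bulk samples, fewer cells of a type and less RNA per cell cannot be told apart.

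Per length, Sox4 was the most abundant of the 10 genes until day 5, and Sox8 from day 12 on, in both conditions. In untreated cells the order was Sox4 (110.4 ± 13.8 CPM per kb, SD, n = 3), Sox8 (38.0 ± 10.5), Sox11 (34.1 ± 3.67), Sox12 (20.8 ± 1.62), Sox9 (11.7 ± 2.02), Sox15 (0.792 ± 0.0972) and Sox7 (0.0801 ± 0.0198). Only Sox8 and Sox11 overlapped between neighbours in this order down to Sox7. At day 35 in cone cultures Sox8 (49.5 ± 6.54 CPM per kb) was followed by Sox9 (25.8 ± 4.69), Sox4 (19.4 ± 2.70), Sox12 (6.01 ± 0.672) and Sox11 (4.61 ± 0.172), and the libraries of Sox9 and Sox4 overlapped. In rod cultures of that day the order was Sox8 (67.7 ± 21.0), Sox9 (33.1 ± 2.61), Sox4 (19.8 ± 0.412), Sox12 (7.72 ± 0.954) and Sox11 (7.08 ± 1.23), and here Sox12 and Sox11 overlapped. The SoxC genes together went from 155 to 181 CPM per kb in untreated libraries to 26.8 to 33.7 in cone and 34.1 to 35.2 in rod libraries at day 35. The SoxE genes together stood at 42.2 to 60.2 CPM per kb in untreated libraries, 72.9 to 77.2 in cone and 83.2 to 120.2 in rod libraries at day 35. Rod primed libraries were already at 75.6 to 84.8 CPM per kb, which overlaps rod day 35, and cone libraries were higher at day 21 (85.1 to 107.7) than at day 35. The summed SoxC level was thus 3.36 ± 0.334 times the SoxE level in untreated cells, 0.400 ± 0.0484 times in cone and 0.351 ± 0.0657 times in rod cultures at day 35.

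**Figure D1:**
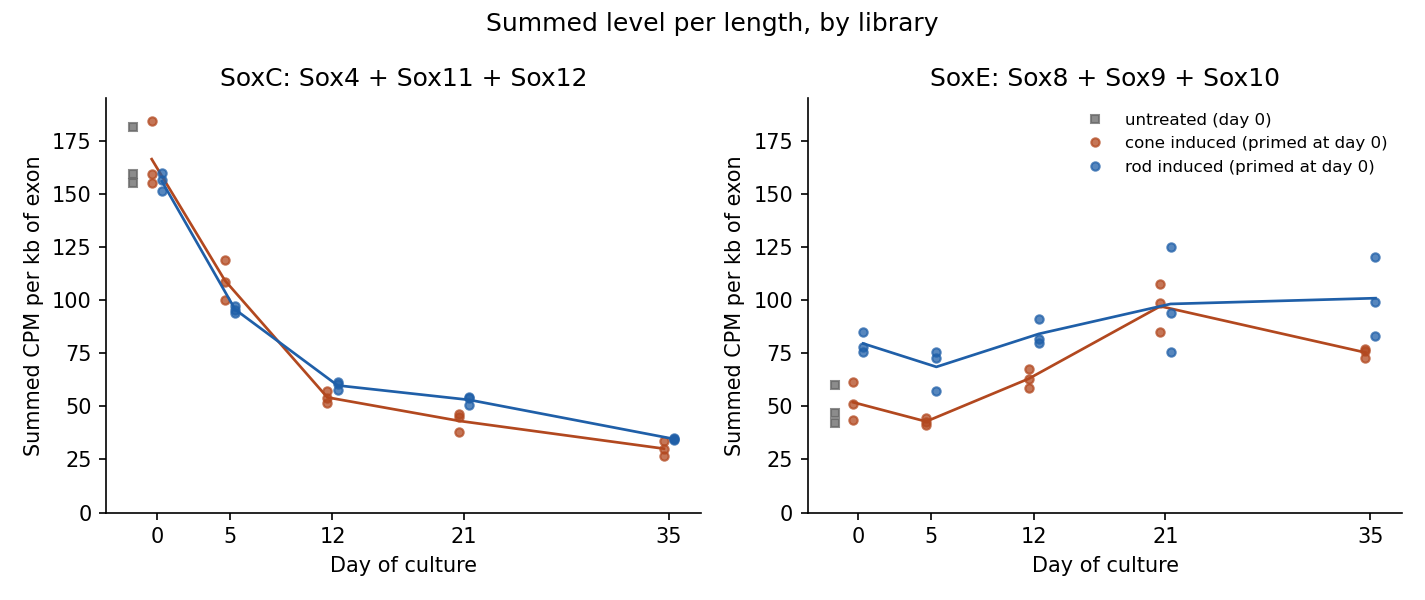
Summed CPM per kb of exon of the SoxC genes (left) and the SoxE genes (right) in each of the 33 libraries by day of culture, with lines through the group means (n = 3). SoxC sums lie between 155 and 184 in untreated and cone primed libraries and between 26.8 and 35.2 at day 35, while SoxE sums are higher at day 35 than in untreated libraries in both conditions.

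SoxC genes fell over the culture in both conditions. Sox4 is a single-exon gene on the minus strand (chr13:28948919-28953713, mouse build GRCm38). Its levels were 606, 495 and 487 CPM in untreated libraries, 528, 544 and 488 in cone primed and 504, 457 and 453 in rod primed libraries. At day 35 they were 106, 79.9 and 93.9 CPM in cone and 94.2, 93.4 and 97.2 CPM in rod libraries, all below every day 0 library. Against primed cells, Sox4 at day 35 was 5.58-fold lower in cone cultures (log2 -2.48 ± 0.11, adjusted p by edgeR 2.88e-15) and 4.96-fold lower in rod cultures (-2.31 ± 0.11, 1.25e-14). Sox11, also a single-exon gene on the minus strand (chr12:27334264-27342574), stood at 249, 417 and 244 CPM in cone primed and at 289, 297 and 360.5 CPM in rod primed libraries. By day 35 it was at 39.9, 37.2 and 37.9 CPM in cone and at 47.8, 60.6 and 68.1 CPM in rod libraries. This was 7.91-fold lower in cone (-2.98 ± 0.21, adjusted p by edgeR 5.03e-12) and 5.36-fold lower in rod cultures (-2.42 ± 0.21, 2.56e-10), and no primed library overlapped the later ones. Sox12 (chr2:152393611-152398063, minus strand), the third SoxC gene, stood at 85.2, 92.2 and 107 CPM in cone primed and at 88.0, 90.7 and 82.2 CPM in rod primed libraries. At day 35 it was at 30.2, 25.3 and 24.8 CPM in cone and 38.6, 34.5 and 30.1 CPM in rod libraries, 3.55-fold lower (-1.83 ± 0.13, adjusted p by edgeR 9.05e-12) and 2.53-fold lower (-1.34 ± 0.13, 3.24e-09).

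All 3 SoxC genes were lower than in primed cells at each of the 4 later days in both conditions. The first fall, to day 5, was largest for Sox11 (-1.40 ± 0.20 in cone, -1.14 ± 0.20 in rod cultures) and smaller for Sox12 (-0.79 ± 0.13 and -0.62 ± 0.13) and Sox4 (-0.39 ± 0.10 and -0.58 ± 0.11). The Sox4 fall to day 5 in cone cultures had an adjusted p by edgeR of 0.00919, which went to 0.0700 without cone day 5 replicate 1 (-0.33) and 0.110 without cone day 5 replicate 2 (-0.29). In cone cultures 22.3%, 48.4%, 52.6% and 57.7% of all genes tested were called on days 5, 12, 21 and 35, and 10.2%, 21.7%, 23.2% and 26.5% were called lower. In rod cultures 17.5%, 42.4%, 50.8% and 55.6% were called, and 8.79%, 18.2%, 23.6% and 26.2% were called lower. Over the 11 group means of log2 CPM the SoxC genes moved together: r was 0.95 for Sox4 with Sox12, 0.91 for Sox11 with Sox12 and 0.87 for Sox4 with Sox11. These are descriptions, since all points share the same libraries.

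The 12 genes of the early neuron and retinal ganglion cell list moved in the same direction over this time. Their sum went from 1032 to 1515 CPM in untreated libraries to 30.4 to 60.0 CPM in cone and 16.1 to 21.7 CPM in rod libraries at day 35, where Atoh7 and Pou4f2 were at 0. All 12 were called lower in both conditions, with a median log2 fold change of -5.48 in cone and -5.89 in rod cultures against 0.03 and 0.04 over all genes tested. Cell cycle genes fell as well: 7 of 8 were called lower in cone cultures (median -1.18) and 8 of 8 in rod cultures (median -1.69) at day 35. At rod priming the early neuron sum was 577 to 949 CPM, below all untreated libraries, though 0 of the 12 genes were called. The SoxC sums of these 2 groups overlapped, at 151 to 160 CPM per kb in rod primed and 155 to 181 in untreated libraries. The part of these cell types in the SoxC levels was not tested.

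**Figure D2:**
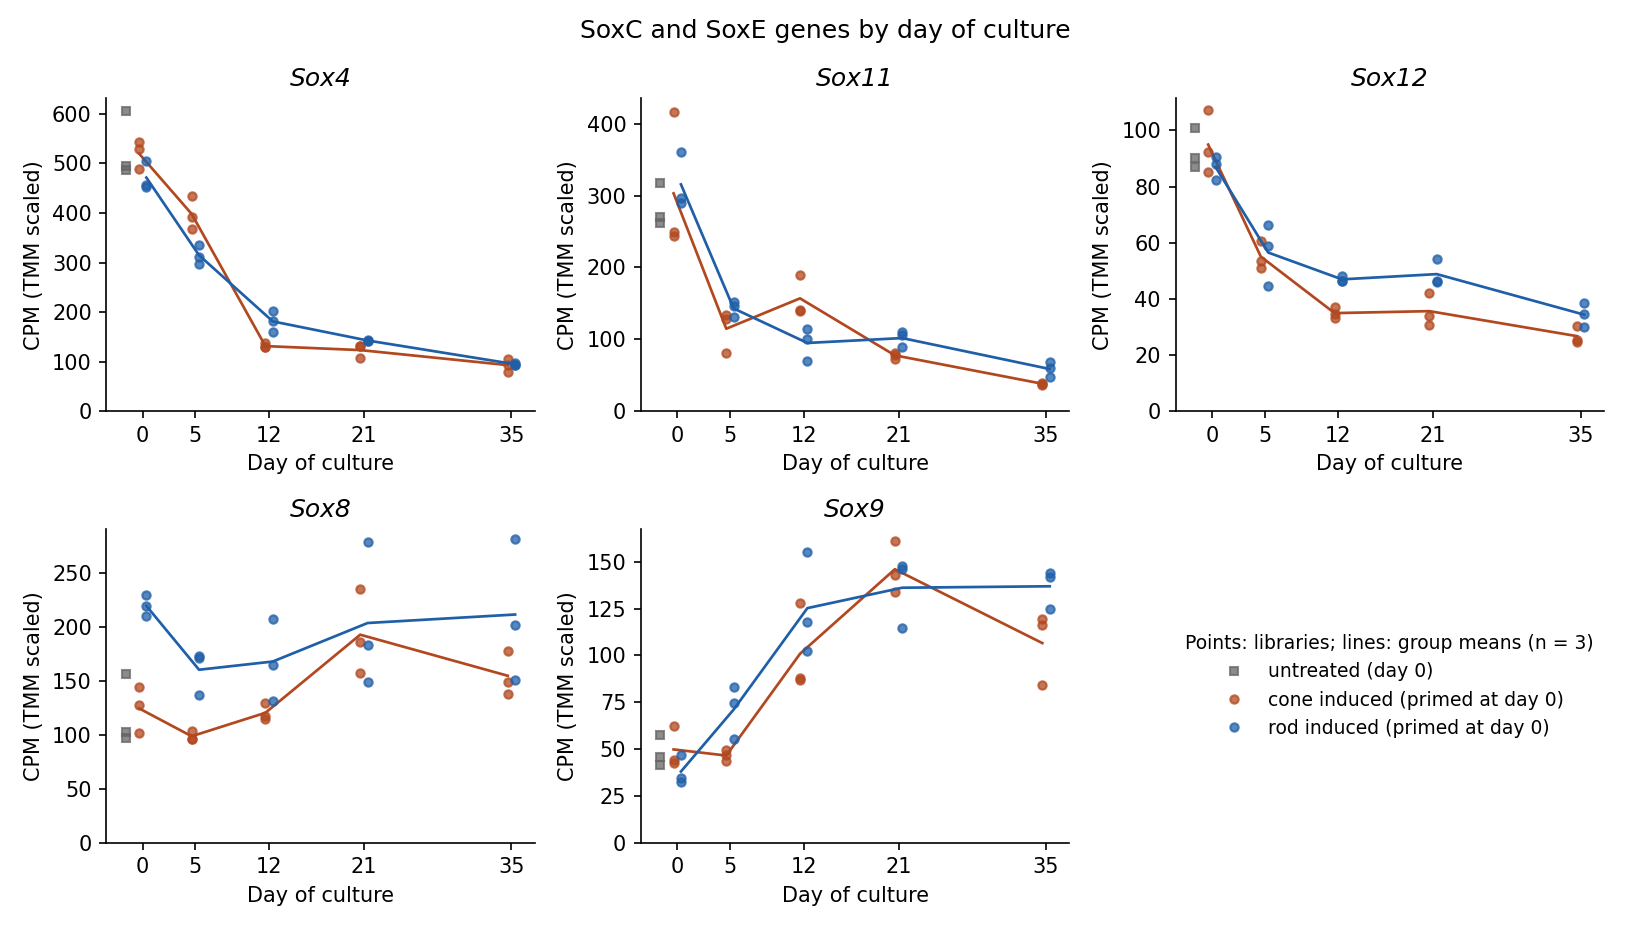
CPM of Sox4, Sox11, Sox12, Sox8 and Sox9 in each library by day of culture; points are libraries and lines join the group means (n = 3 per group), with untreated cells set left of day 0. Sox4, Sox11 and Sox12 are lower at day 35 than at day 0 in both conditions, Sox9 is higher, and Sox8 is higher in rod primed (209 to 229 CPM) than in cone primed or untreated libraries (97.0 to 156 CPM).

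The sequences just before the start of the 3 SoxC genes are shown because these genes moved together, and that of Sox8 because it was the member that changed with rod priming. They are the 250 bases before the RefSeq start (build GRCm38.p6), given 5′ to 3′ on the gene's strand, the minus strand for all 4. The windows lie at chr13:28953700-28953949 for Sox4, chr12:27342719-27342968 for Sox11, chr2:152398047-152398296 for Sox12 and chr17:25570687-25570936 for Sox8. RefSeq starts of the SoxC genes differ from the gene positions given above. The Sox4 and Sox12 windows reach a few bases into those positions, and the Sox11 window lies apart from its gene. Capitals mark matches, on either strand, to the TATA box (TATAAA), the box named by its letters CCAAT, the GC box (GGGCGG), the retinoid receptor half-site (AGGTCA) and the core of Sox sites (ACAAT). RefSeq promoters were matched for 5 of the 10 genes.
Sox4: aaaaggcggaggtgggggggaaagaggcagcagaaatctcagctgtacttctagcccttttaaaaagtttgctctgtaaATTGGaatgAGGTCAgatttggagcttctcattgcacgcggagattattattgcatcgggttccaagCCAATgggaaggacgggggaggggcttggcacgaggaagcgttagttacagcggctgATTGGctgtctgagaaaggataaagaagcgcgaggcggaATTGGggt
Sox11: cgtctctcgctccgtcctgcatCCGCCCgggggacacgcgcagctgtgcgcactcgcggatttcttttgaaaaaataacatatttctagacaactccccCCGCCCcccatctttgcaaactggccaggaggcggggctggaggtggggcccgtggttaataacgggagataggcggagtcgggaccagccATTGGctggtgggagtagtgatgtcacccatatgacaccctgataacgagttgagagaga
Sox12: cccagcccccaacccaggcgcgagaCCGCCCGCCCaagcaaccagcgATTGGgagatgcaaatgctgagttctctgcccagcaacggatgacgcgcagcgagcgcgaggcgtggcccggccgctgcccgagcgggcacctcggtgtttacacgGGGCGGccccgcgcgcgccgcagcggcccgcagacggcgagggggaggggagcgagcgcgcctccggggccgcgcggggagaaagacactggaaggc
Sox8: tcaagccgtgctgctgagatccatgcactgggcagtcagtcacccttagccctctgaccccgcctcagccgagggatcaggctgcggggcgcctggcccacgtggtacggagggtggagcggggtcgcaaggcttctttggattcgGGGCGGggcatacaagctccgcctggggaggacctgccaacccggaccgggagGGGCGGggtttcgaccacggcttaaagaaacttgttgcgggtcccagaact

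The CCAAT box occurred in the windows of all 3 SoxC genes, with 4 matches for Sox4 and 1 each for Sox11 and Sox12, and it is found in 33.8% of 32851 promoter windows of this length. The GC box, found in 32.7% of windows, occurred 2 times for Sox11, 3 times for Sox12 (of which 1 pair overlapped) and 2 times for Sox8. Sox4 alone among the 4 had the AGGTCA half-site (14.0% of windows), while TATAAA (12.4%) and ACAAT (27.7%) were found in none of the 4. The matched window of Sox15, which is not shown, held 1 match, to ACAAT. A match is a description of the letters and says nothing on binding.

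SoxC genes differed between cone and rod cultures at some days, by less than 1 on the log2 scale, and Sox4 and Sox11 did so in opposite directions at different days. At day 0 none of the 3 was called. At day 5 Sox4 was higher in cone libraries (392, 367 and 435 CPM) than in rod libraries (298, 334 and 312 CPM), by 1.26-fold (0.34 ± 0.10, adjusted p by edgeR 0.0404). At day 12 it was lower in cone libraries (129, 137 and 129 CPM) than in rod libraries (160.3, 202 and 182 CPM), by 1.38-fold (-0.46 ± 0.11, adjusted p by edgeR 0.00456). The groups did not overlap at either day. At day 35 the Sox4 difference was -0.03 ± 0.11, with a 95% interval of -0.24 to 0.19. Sox11 at day 12 was higher in cone libraries (140.2, 142 and 189 CPM) than in rod libraries (114, 70.3 and 100.4 CPM), by 1.65-fold (0.73 ± 0.20, adjusted p by edgeR 0.0173). At day 35 it was lower in cone libraries (39.9, 37.2 and 37.9 CPM) than in rod libraries (47.8, 60.6 and 68.1 CPM), by 1.54-fold (-0.62 ± 0.20, adjusted p by edgeR 0.0424). A test for a change over days in the difference of cone minus rod cultures called Sox4 (adjusted p by edgeR 0.00544) and Sox11 (0.0154) but not Sox12 (0.0815), Sox9 (0.0707), Sox7 (0.177), Sox8 (0.403) or Sox15 (0.415), so 2 of 7 members where 9.22% of all genes were called.

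Sox12 was lower in cone cultures at day 12 (34.5, 37.0 and 33.3 CPM against 46.5, 48.1 and 46.4 in rod libraries) by 1.34-fold (-0.43 ± 0.13, adjusted p by edgeR 0.0362). At day 21 it was lower again (42.1, 34.1 and 30.8 CPM against 54.4, 45.9 and 46.3), by 1.37-fold (-0.46 ± 0.13, adjusted p by edgeR 0.0267), and at day 35 the difference of -0.36 ± 0.13 was not called (0.0771). At day 12, 3 of 7 members were called where 10.1% of all genes were, at day 21 it was 1 of 7 against 9.00%, and at day 35 1 of 7 against 12.3%.

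Leaving out 1 library ended several of these calls, with the direction kept and fold changes of like size. Sox11 at day 12 was no longer called without rod day 12 replicate 2 (0.54, adjusted p by edgeR 0.126) or cone day 12 replicate 3 (0.57, 0.152), and the same libraries ended its change with day (adjusted p 0.0528 and 0.0705). Sox4 at day 12 stayed called whichever of the 6 libraries was left out (highest adjusted p 0.0382). A model of the 6 compared libraries only did not call it (-0.48, adjusted p by edgeR 0.102), nor Sox11 (0.71, 0.147) or Sox12 (-0.44, 0.0809). The Sox4 difference at day 5 was lost without cone day 5 replicate 1 (0.39, 0.0676) or 3 (0.30, 0.142) or rod day 5 replicate 1 (0.30, 0.181) or 3 (0.33, 0.101). For Sox12 the call at day 12 was lost without cone day 12 replicate 1 (-0.41, 0.101) or 3 (-0.39, 0.135) or rod day 12 replicate 2 (-0.41, 0.0828) or 3 (-0.44, 0.0812). At day 21 the Sox12 call was lost without cone day 21 replicate 2 (-0.44, 0.0748) or 3 (-0.36, 0.146) or rod day 21 replicate 1 (-0.38, 0.109). Sox11 at day 35 was not called without cone day 35 replicate 1 (-0.65, 0.0850), 2 (-0.61, 0.115) or 3 (-0.62, 0.110) or rod day 35 replicate 2 (-0.59, 0.0958) or 3 (-0.51, 0.171), while Sox12 was then called without rod day 35 replicate 3 (-0.46, 0.0378). On the deposited TPM values none of these members was called at any day, and the Sox4 difference at day 12 had the other sign (0.04).

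**Figure D3:**
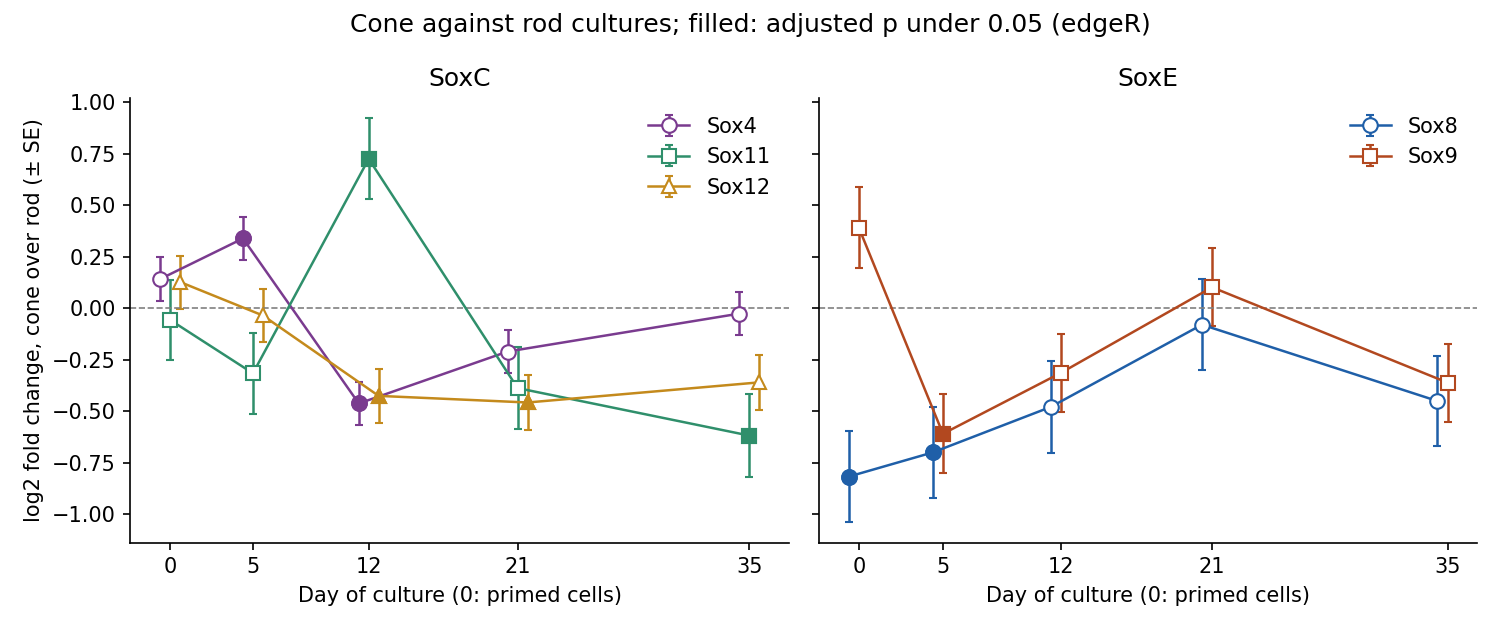
Log2 fold change of cone over rod cultures (± SE, edgeR) at each day for the SoxC genes (left) and for Sox8 and Sox9 (right); filled symbols have an adjusted p under 0.05. Sox4 goes from 0.34 at day 5 to -0.46 at day 12, Sox11 from 0.73 at day 12 to -0.62 at day 35, and Sox8 is below 0 at every day.

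Among the SoxE genes, Sox9 rose over the culture in both conditions, and Sox8 was the member called after rod priming. Sox8 lies on the minus strand (chr17:25565892-25570686). Its levels were 219, 209 and 229 CPM in rod primed libraries, 156, 97.0 and 103 in untreated and 127, 144 and 102 in cone primed libraries. Every rod primed library was above all other day 0 libraries. Rod primed cells had 1.85-fold more Sox8 than untreated cells (0.89 ± 0.22, adjusted p by edgeR 0.0106), the only call among 7 members where 10.3% of all genes were called. Without untreated replicate 2 the difference was 0.80 (adjusted p by edgeR 0.0584). Between cone primed and untreated cells edgeR called 0 members (and 0 of all genes), DESeq2 called 0 members, and 0 members had an unadjusted p under 0.05; for Sox8 the difference was 0.07 ± 0.22, with a 95% interval of -0.38 to 0.53. Directly compared, cone primed cells had 1.76-fold less Sox8 than rod primed cells (-0.82 ± 0.22, adjusted p by edgeR 0.0238), again 1 of 7 members, against 7.27% of all genes. That call was lost without cone primed replicate 1 (-0.84, adjusted p 0.0602) or 3 (-0.70, 0.137) or rod primed replicate 1 (-0.83, 0.0519) or 3 (-0.78, 0.0873).

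At day 5 Sox8 was still lower in cone libraries (95.9, 96.2 and 103 CPM) than in rod libraries (173, 136 and 170.5 CPM), by 1.62-fold (-0.70 ± 0.22, adjusted p by edgeR 0.0449). On days 12, 21 and 35 the difference was not called, with values of -0.48 ± 0.22, -0.08 ± 0.22 and -0.45 ± 0.22 in turn (edgeR adjusted p 0.188, 0.878 and 0.205). The 95% interval at day 21, -0.54 to 0.38, takes in no change, and the rod libraries of days 21 and 35 spread widely (149 to 278 and 151 to 281 CPM). Against primed cells, Sox8 rose by day 21 in cone cultures (235, 185 and 157 CPM, 0.63 ± 0.22, adjusted p by edgeR 0.0190). This call was lost without cone primed replicate 1 (0.59, 0.0553) or 3 (0.45, 0.132) or cone day 21 replicate 1 (0.43, 0.142). At day 35 the change was 0.31 ± 0.22 in cone and -0.05 ± 0.22 in rod cultures (adjusted p by edgeR 0.235 and 0.853).

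An antisense gene, 2810468N07Rik, overlaps the Sox8 exons on the other strand and had up to 218 counts per library, against 970 to 3606 for Sox8. It was also higher in rod primed than untreated cells (1.61 ± 0.29, adjusted p by edgeR 0.000558) and lower in cone than rod cultures at day 0 (-1.68 ± 0.30) and day 5 (-1.53 ± 0.28). Whether counting used the strand is not given in the sources used here, so reads of both genes may not have been told apart. Müller glia genes moved with Sox8 at priming: 7 of 10 were higher in rod primed than in untreated cells (median 1.48, against 0 over all genes), and their sum was 1131 to 1430 CPM against 444 to 549 CPM. The cell cycle sum was 1746 to 2212 CPM against 806 to 1238 CPM, with 5 of 8 genes called higher. Retinal progenitor genes shifted in the same comparison, with 6 of 12 called higher and 2 lower (median 0.92). Their sum was 1752 to 2256 CPM in rod primed against 1286 to 1464 CPM in untreated libraries. At later steps Sox8 and the Müller glia list did not always move together. By cone day 5, 8 of 10 Müller glia genes were called higher than in primed cells, while mean Sox8 went from 124 to 98.4 CPM. At rod day 35, 8 were higher and 1 lower than in primed cells, while mean Sox8 was 211 against 219 CPM. The part of these lists in the Sox8 difference was not tested.

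Sox9, which marks progenitors and Müller glia in the retina, rose over the culture in both conditions (chr11:112782224-112787760, plus strand). It stood at 41.7, 45.7 and 57.7 CPM in untreated, 42.5, 62.5 and 44.3 in cone primed and 32.6, 34.8 and 46.6 CPM in rod primed libraries. By day 12 it was at 128, 86.9 and 87.8 CPM in cone and at 102, 155 and 118 CPM in rod libraries, all above the primed ones. At day 35 it was at 116, 84.3 and 119 CPM in cone cultures, 2.14-fold above primed cells (1.10 ± 0.19, adjusted p by edgeR 2.49e-05), and at 125, 144 and 142 CPM in rod cultures, 3.60-fold above (1.85 ± 0.20, 1.39e-08). In rod cultures the rise was called from day 5 on (0.90 ± 0.20, adjusted p by edgeR 0.00211), whereas the change in cone cultures at day 5 was -0.10 ± 0.19 (0.752). The direct comparison at day 5 gave 49.6, 43.3 and 46.6 CPM in cone against 82.9, 55.5 and 74.9 CPM in rod libraries, 1.53-fold lower in cone (-0.61 ± 0.19, adjusted p by edgeR 0.0444). With Sox8 and Sox4 this made 3 of 7 members called at day 5, where 9.28% of all genes were. Sox9 was not called between the conditions at days 0, 12, 21 or 35 (0.39 ± 0.20, -0.31 ± 0.19, 0.10 ± 0.19 and -0.36 ± 0.19).

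Leaving out 1 library kept the direction of the day 5 differences, at -0.80 to -0.64 for Sox8 and -0.76 to -0.49 for Sox9, but ended most of the calls. The call of Sox9 was lost without cone day 5 replicate 1, 2 or 3 or rod day 5 replicate 1 or 3 (-0.62, -0.53, -0.58, -0.49 and -0.57; adjusted p by edgeR 0.121, 0.200, 0.140, 0.229 and 0.121). That of Sox8 was lost without the same 5 libraries (-0.64, -0.65, -0.70, -0.64 and -0.65; adjusted p by edgeR 0.151, 0.146, 0.10, 0.161 and 0.122). With the size factors of DESeq2 in place of TMM both went just past the threshold, at -0.57 for Sox9 and -0.66 for Sox8. At that day 7 of 8 cell cycle genes were lower in cone cultures (median -1.05, against 0.01 over all genes), with a sum of 574 to 772 CPM against 1403 to 1578 CPM. The Müller glia sum was 1030 to 1400 CPM in cone and 1921 to 2197 CPM in rod libraries, with 3 of 10 genes called lower and 1 higher in cone cultures. The retinal progenitor sum was 1093 to 1196 CPM against 1431 to 1584 CPM, with 4 of 12 lower and 1 higher. The part of these cells in the Sox8 and Sox9 differences was not tested.

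Several lists of cells that express SoxE genes were also higher at day 35, but Sox9 did not rise at each step at which the Müller glia list did. At rod priming the Müller glia sum was higher than in untreated cells while mean Sox9 was 38.0 against 48.4 CPM, and by cone day 5, 8 of 10 Müller glia genes had risen (median 1.91) while Sox9 differed by -0.10. The Müller glia list (10 genes) reached a sum of 4127 to 5146 CPM in cone and 5076 to 7798 CPM in rod cultures at day 35. Against primed cells, 9 of 10 were called higher in cone (median 3.85) and 8 higher and 1 lower in rod cultures (median 2.05). Of the astrocyte list, 6 of 7 tested genes were higher and 1 lower in each condition (medians 4.69 and 4.78), while Gjb6 was at 0 in rod cultures at day 35. Of the mesenchyme and cartilage list, in whose cartilage cells Sox9 is also known, 8 of 10 tested genes were higher in each condition, with 1 lower in cone cultures, and Matn1 was at 0 in both. The collagen gene Col2a1, a known Sox9 target in cartilage, stood at 42.1 CPM in untreated, 182 in rod primed, 197 in cone and 258 CPM in rod cultures at day 35. The part of these cell types in the Sox9 rise was not tested.

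Sox10, the third SoxE gene (chr15:79154913-79164490, minus strand), was at or below 2 counts in every library. It had 10 counts in all over the 33 libraries, and 8 libraries had any. With a count of 0, up to 3 counts remain possible, and this floor lay at 0.174 to 0.407 CPM depending on the library. As a limit it holds only for libraries without a count. In the 8 libraries with a count, Sox10 was at most 0.271 CPM, and it reached 3 counts in no library. The floor covers counting error only, whereas the 95% intervals of the fold changes come from the model and include the spread between libraries. Markers of the cells that express it were mixed. In the oligodendrocyte lineage list, Mog was at 0 throughout, and 4 of 8 tested genes were higher and 4 lower in cone cultures at day 35 against 2 higher and 3 lower in rod cultures. In the Schwann cell and neural crest list, Foxd3 was at 0 in untreated cells and at day 35 in both conditions, and the sum went from 352 to 403 CPM in untreated to 166 to 181 in cone and 249 to 280 CPM in rod cultures at day 35. Most of its tested genes nevertheless rose against primed cells: 5 of 7 were called higher and 1 lower in cone cultures (median 2.28), and 4 higher and 2 lower in rod cultures (median 1.13). The melanocyte and pigment epithelium list summed to 6.52 to 17.1 CPM in untreated and 25.8 to 39.0 CPM in cone cultures at day 35, with 2 of 4 tested genes called higher, and 25.9 to 32.6 CPM in rod cultures, with 2 higher and 1 lower.

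Among the SoxF genes only Sox7 was measured above the filter, at low counts (chr14:63943674-63950732, plus strand). It had 305 counts over all libraries. Raw counts were 2, 5 and 3 in untreated, 3, 4 and 0 in cone primed and 2, 5 and 4 in rod primed libraries, and at day 35 they were 16, 13 and 16 in cone and 18, 16 and 18 in rod libraries. Each day 35 library thus had more Sox7 counts than any day 0 library. Cone cultures had a called rise against primed cells on day 21 (1.95 ± 0.66, edgeR adjusted p 0.0144) and day 35 (2.38 ± 0.64, 0.00241; 95% interval 1.06 to 3.70). Rod cultures showed it on day 12 (1.68 ± 0.59, edgeR adjusted p 0.0247) and day 35 (1.76 ± 0.59, 0.0140; 95% interval 0.54 to 2.98), but not at day 21 (0.47 ± 0.64, 0.559). Genes called higher at day 35 made up 31.1% of all genes in cone and 29.4% in rod cultures. The day 21 call in cone cultures was lost without cone primed replicate 3 (1.35, 0.0884) or cone day 21 replicate 3 (1.56, 0.0876). The day 12 call in rod cultures was lost without rod primed replicate 1 (1.51, 0.0832) or 3 (1.63, 0.0758) or rod day 12 replicate 3 (1.42, 0.0930), and the day 35 call without rod primed replicate 1 (1.59, 0.0526).

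Sox7 was not called between the conditions at any day. At day 12 counts were 5, 5 and 4 in cone and 15, 15 and 23 in rod libraries, which did not overlap (-1.57 ± 0.57, adjusted p by edgeR 0.0843). At day 5 they were 8, 5 and 8 in cone and 14, 22 and 2 in rod libraries (-1.28 ± 0.56, adjusted p by edgeR 0.159), and without rod day 5 replicate 3, the library with 2 counts, Sox7 was called (-1.84, 0.0155). Sox17 (chr1:4490931-4497354, minus strand) and Sox18 (chr2:181669836-181671640, minus strand) had 7 and 9 counts in all and at most 2 in a library, so neither reached 3 counts in any library. Endothelial markers moved in both directions. At day 35, 4 of 7 tested endothelium genes were higher and 1 lower in cone cultures, and 3 were higher and 1 lower in rod cultures, while Tie1 and Cldn5 were at 0 in both and Cdh5 averaged 0.169 CPM in cone and 0.121 CPM in rod libraries. Flt1, a VEGF receptor, averaged 0.697 CPM in untreated libraries, 56.0 in cone and 99.5 in rod cultures of day 35, and Kdr, another VEGF receptor, 344, 174 and 69.1 CPM. Microglia genes summed to at most 1.28 CPM in untreated libraries, and on day 35 to 12.9 to 59.3 CPM in cone libraries, where 4 of 4 tested were called higher, and 1.11 to 1.42 CPM in rod libraries. The part of these cells in the Sox7 counts was not tested.

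**Figure D4:**
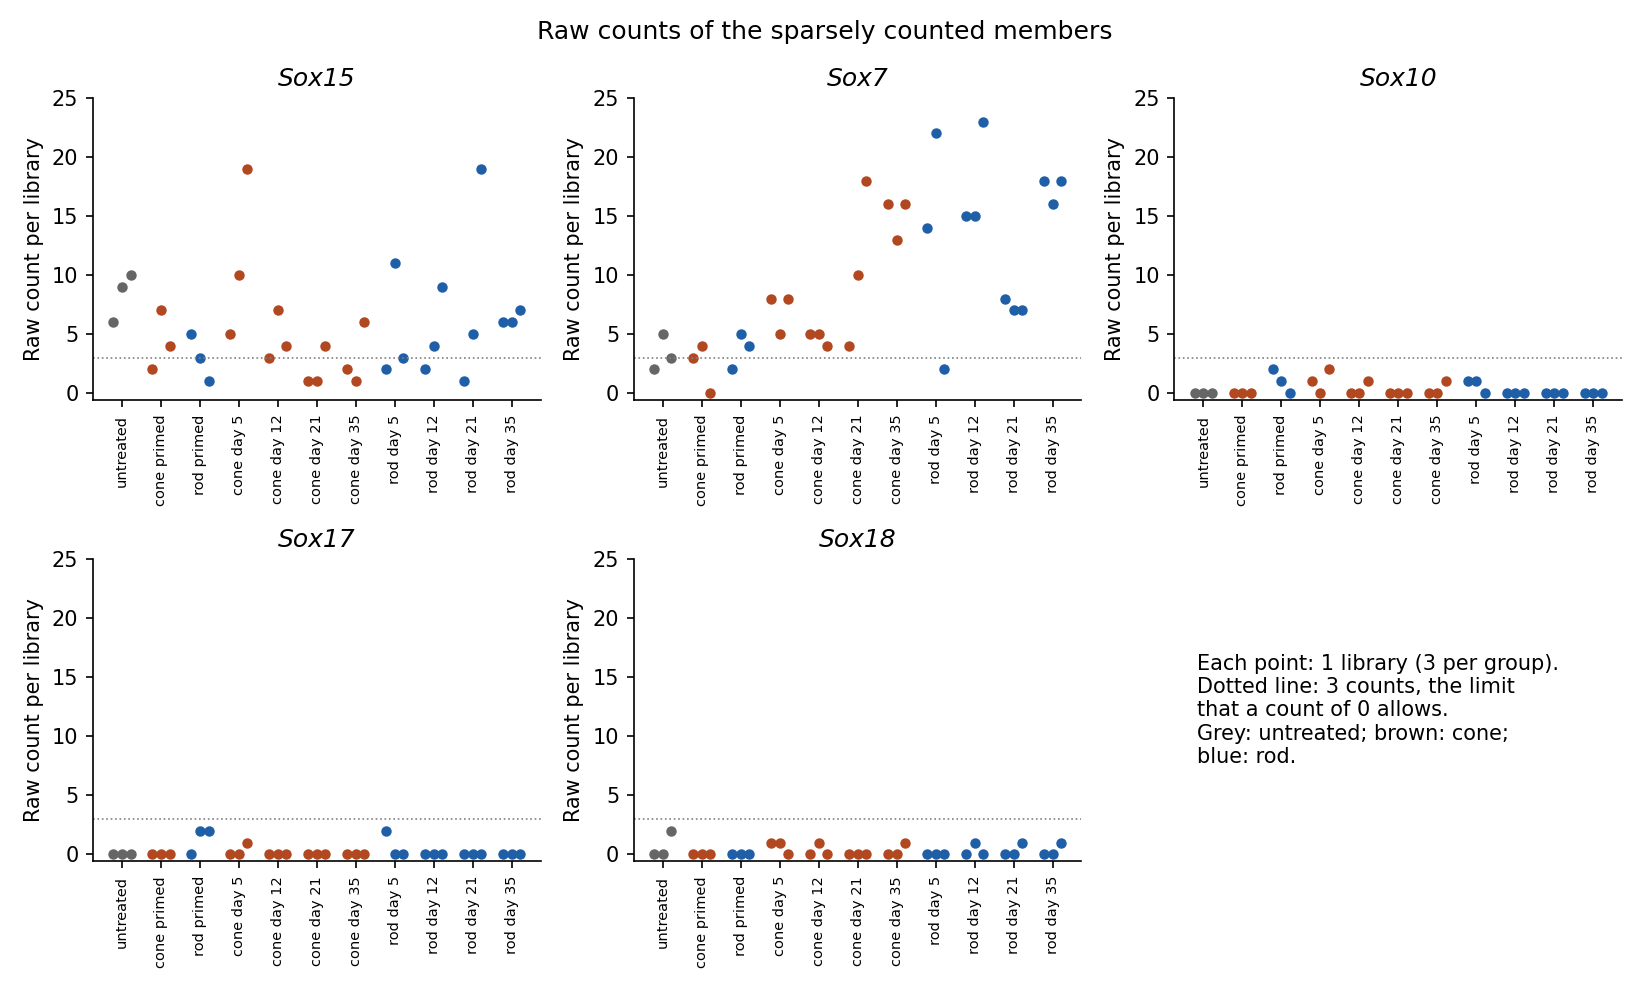
Raw counts of Sox15, Sox7, Sox10, Sox17 and Sox18 in each of the 33 libraries by group, with a dotted line at the floor of 3 counts. Sox7 lies at 5 counts or below in all day 0 libraries and at 13 to 18 counts at day 35, Sox15 varies between 1 and 19 counts with cone and rod libraries overlapping at every day, and Sox10, Sox17 and Sox18 stay at 2 counts or below.

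Sox15, the gene of the series title (chr11:69655314-69656727, plus strand, 2 exons), was present at 1 to 19 counts in each library, 185 in all. Raw counts were 6, 9 and 10 in untreated, 2, 7 and 4 in cone primed and 5, 3 and 1 in rod primed libraries. They were 5, 10 and 19 in cone and 2, 11 and 3 in rod libraries at day 5, and 3, 7 and 4 against 2, 4 and 9 at day 12. At day 21 they were 1, 1 and 4 in cone and 1, 5 and 19 in rod libraries, and at day 35 they were 2, 1 and 6 against 6, 6 and 7. Cone and rod libraries overlapped at every day, in counts and in CPM. Untreated libraries (0.60 to 0.768 CPM) lay above cone primed ones (0.252 to 0.566 CPM), and this difference was not called. The counts set wide 95% intervals on the log2 difference of cone and rod: -1.33 to 2.04 for day 0, -0.71 to 2.11 for day 5, -1.36 to 1.74 for day 12, -3.32 to 0.03 for day 21 and -2.52 to 0.69 for day 35. A 2-fold difference in either direction lies inside the intervals at days 0 and 12. The interval at day 5 takes in a 2-fold higher level in cone cultures, and those at days 21 and 35 a 2-fold lower one. Differences of that size were thus not excluded. The last exon of Sox15 overlaps Mpdu1 on the other strand, which had up to 229 counts per library and was not called between the conditions at any day.

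The 3 genes whose group means followed each member most closely were named by Pearson r over the 11 group means of log2 CPM. For Sox4 they were Gdpd1, Fem1b and Ccar2 (r 0.995, 0.995 and 0.994), and for Sox12 Smarcd1, Zbed4 and Zfp428 (0.994, 0.981 and 0.981). For Sox11 they were Smarca4, Sart3 and Smarca5 (0.982, 0.980 and 0.973). For Sox9 they were Nsmf, Pcdh1 and Upp2 (0.988, 0.977 and 0.977), and for Sox8 Ctdsp2, Papss1 and Sort1 (0.934, 0.931 and 0.924). Sox8 was less closely tracked by Sox9 (r 0.45) than Sox4 was by Sox11, and Sox4 and Sox9 ran opposite to each other (r -0.92).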

How the data were processed

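Total RNA of 33 libraries was extracted and prepared with low-input kits, per the labels' protocols. The authors deposited raw counts per gene, with 5 summary lines that were left out here; genes held 26.9% to 34.9% of each table's total and the line for reads in no gene 14.6% to 35.6%. Other tables give TPM, FPKM and coverage, per the file headers. HISAT2, StringTie, HTSeq and build GRCm38 are named in the submitters' processing notes, without versions, roles or strand setting. FPKM and coverage were not used. TPM followed counts per length poorly within libraries (Spearman rho 0.324 to 0.468), and Sox9 was listed at 0 TPM in 2 libraries, of which 1 had 685 counts, so TPM served only as an alternative.

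Of 32488 genes with a count, 18150 passed filterByExpr (minimum count 10). TMM scaling and 1 quasi-likelihood model of 11 groups were fitted with edgeR 4.0.16 (R 4.3.3) on counts from all libraries, with 16 comparisons and Benjamini-Hochberg adjustment over all genes tested. SE is the log2 fold change over the root of F, and 95% intervals use the model's degrees of freedom. The common biological coefficient of variation was 0.213. CPM per kb uses exon-union lengths of GENCODE M21. The steps were tested on simulated counts. Alternatives were the size factors of DESeq2, DESeq2 1.42.0, no filter, a replicate block, limma 3.58.1 on log2(TPM + 1), the compared libraries only and leaving out each library.

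The members and the 13 marker lists (132 genes) were chosen with earlier results of these data known. All 10 members are named. For members with at least 5 CPM in a group, the 3 tested genes of highest r over group means are named, among genes with a mean log2 CPM (prior count 2) of at least 1, with Gm and Rik symbols and other members passed over. List genes are named as examples, and genes overlapping a member where a result turns on them.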

Additional observations from a re-analysis of the deposited data

Results flagged for a closer look

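The cone minus rod difference of Sox4 changed with day (edgeR F test over 5 days, adjusted p 0.00544). On the log2 scale it was 0.14, 0.34, -0.46, -0.21 and -0.03 on days 0, 5, 12, 21 and 35, and leaving out any of the 30 libraries compared gave adjusted p-values of 0.00145 to 0.0161. That of Sox11 changed with day as well (edgeR adjusted p 0.0154). It was -0.06, -0.32, 0.73, -0.39 and -0.62 at the same days, and the leave-one-out range was 0.00496 to 0.0705, with the highest value without cone day 12 replicate 3 and 0.0528 without rod day 12 replicate 2. Both were also called with DESeq2 and with the replicate block.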

How the results depend on the processing

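The 46 called differences kept their direction under every count-based alternative and leave-one-out setting. They kept their call in 217 of 229 alternatives that kept all libraries and in 232 of 276 leave-one-out settings, and the 36 called time changes did so in 178 of 179 and 205 of 216. Without a filter, Sox7 at rod day 12 was not called (1.66). On TPM, 0 members were called between cone and rod at days 0, 5, 12, 21 and 35, and signs turned for Sox4 at days 12, 21 and 35 (0.035, 0.067 and 0.20), Sox15 at days 0 and 12 (-0.75 and -0.55) and Sox7 at day 21 (-0.067). At day 5, the size factors of DESeq2 and the unfiltered table left 1 member called each in place of 3. Sox12 at day 5 changed sign with these size factors (0.0022) and with DESeq2 (0.0045). In a model of the compared libraries only, 0 members were called at days 12 and 21, of 6 and 5 tested. DESeq2 called 4 members for the change with day in place of 2, adding Sox9 (0.0426) and Sox12 (0.0307). The cause was not tested.

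Leaving out 1 library gave 0 to 1 called members at days 0, 21 and 35, 0 to 3 at day 5, 1 to 3 at day 12, 0 to 1 for rod primed against untreated cells and 1 to 3 for the change with day. Signs of uncalled differences turned for Sox11 at day 0 (-0.36 to 0.074), Sox15 at day 0 (-0.16 to 1.10) and day 12 (-0.18 to 0.92), Sox12 at day 5 (-0.18 to 0.091), Sox9 at day 21 (-0.011 to 0.16), Sox8 at day 21 (-0.27 to 0.21), Sox4 at day 35 (-0.13 to 0.056), Sox7 at day 35 (-0.18 to 0.019), Sox8 in cone primed against untreated cells (-0.050 to 0.34) and Sox8 in rod cultures at day 35 (-0.35 to 0.13).

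The replicate numbers of the labels showed no consistent pairing. Same-numbered libraries had deviations correlated over 0.1 in 8 of 45 pairs (r -0.23 to 0.51), never in all 3 pairs of any of 15 comparisons. Of the 45, 12 correlated best with their own number, among them all 3 of rod primed against untreated cells (r 0.089, 0.059 and 0.169). Such correlations cannot show that the numbers carry no pairing. With the replicate block, Sox9 at day 5 was -0.61 and no longer called, and no other call was lost. Depth limits Sox15, Sox7, Sox10, Sox17 and Sox18, which had under 30 counts in every library.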

Other observations

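Of the other 10 Sox genes, 8 were tested, and Sry and Sox14 were not. Against primed cells at day 35, 2 were called higher and 1 lower in cone cultures, and 1 higher and 2 lower in rod cultures. Over all genes tested, 57.7% and 55.6% were called. Between the conditions at day 35, 1 was higher and 1 lower in cone cultures, where 12.3% of all genes were called. The genes named here are examples. Sox6, a SoxD gene without a transactivation domain of its own, went from 15.4 CPM in untreated to 34.3 CPM in rod primed cells (1.16 ± 0.26 on the log2 scale, adjusted p by edgeR 0.00372). It was lower in cone than rod cultures at days 0, 12, 21 and 35 (-0.85, -0.91, -0.79 and -0.93), and at day 35 it stood at 60.1 CPM in cone and 115 CPM in rod cultures. Sox3, a SoxB1 gene of neural progenitors, was lower than in primed cells on day 35, at 4.06 CPM in cone cultures and 2.11 CPM in rod cultures (-1.51 ± 0.33 and -2.98 ± 0.35, adjusted p by edgeR 0.000302 and 5.59e-08). Sox2, a SoxB1 gene of retinal progenitors, was higher than in cone primed cells (30.3 CPM) at cone day 21 (59.6 CPM, 0.97 ± 0.20, adjusted p by edgeR 0.000250).

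Sox1, the third SoxB1 gene, was found almost only in cone cultures after day 0. It averaged 2.41, 4.14, 1.38 and 0.995 CPM in cone cultures at days 5, 12, 21 and 35, and 0.0238 and 0.0455 CPM at days 5 and 12 in rod cultures, with 0 counts in all rod libraries of days 21 and 35. The oligodendrocyte lineage factors Olig1 and Olig2 were at 12.7 and 9.64 CPM in cone cultures at day 12. In rod cultures of that day they were at 0.166 and 0.143 CPM (adjusted p by edgeR 3.06e-07 and 3.88e-07). Their list did not follow as a whole: of 8 tested genes, 2 were called higher in cone cultures, 1 lower and 5 not called (median 0.09). The list summed to 51.6 to 90.3 CPM in cone and 54.9 to 203.5 CPM in rod libraries of day 12. Sox10 had at most 1 count in these cone libraries.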
